A study of Mus musculus and Oryctolagus cuniculus and Sus scrofa with 20 samples.

Results

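The small RNAs of the adult rat testis were compared with those of the mouse germ cells that make up much of such a testis, pachytene spermatocytes and round spermatids. The comparison uses 3 of the 20 small RNA libraries of the series, chosen by their labels and not by any measured value. The series follows small RNAs through mouse spermatogenesis and in rabbit, pig and rat testis, and it includes cultured mouse spermatogonial stem cells (SSCs) edited at miR-741, a member of an X-linked miRNA family. The rat library was made from whole testes of wild-type adult males, with no strain given in the labels and no treatment. Both mouse libraries were made from cells isolated from testes of wild-type C57BL/6 males at postnatal day 25, also untreated: pachytene spermatocytes, which are germ cells in the long prophase of meiosis, and round spermatids, their haploid descendants, called round sperms in the labels. Each group is 1 library of total RNA, so no difference below has a replicate check, and no test between groups was made. Species, whole tissue against isolated cells, and adult against day 25 differ together between the rat and the mouse libraries and cannot be told apart.

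MicroRNAs (miRNAs) are about the length of a Dicer product, guide Argonaute proteins to messenger RNAs, and find their targets mainly through the seed, bases 2 to 8 from the 5′ end. PIWI-interacting RNAs (piRNAs) are longer, usually start with uridine (T in these files), and in the adult testis are made in great number from long precursor transcripts at the pachytene stage, from loci that keep their place between mammals while their sequence changes fast. In testis the miR-34 and miR-449 families are known as germ cell miRNAs, the X-linked miR-506 family is abundant in mouse germ cells from the spermatocyte on, and miR-202 is known from Sertoli cells, the somatic cells that support the germ cells.

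The rat library held 6030281 reads in 1482159 distinct sequences (tags), against 22785285 reads in 3713036 tags for pachytene spermatocytes and 23552284 reads in 2570481 tags for round spermatids. miRNA reads are those of 18 to 26 nt whose first 18 nt equal a mouse mature sequence of RefSeq (GRCm38.p6), and a miRNA level is given as RPM, reads per 1000000 reads assigned to miRNAs. They numbered 398904 in rat testis (6.62% of its reads), 383456 in pachytene spermatocytes (1.68%) and 657156 in round spermatids (2.79%). All intervals are exact 95% intervals and cover counting error only, since reads of amplified cDNA are not independent molecules.

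The sequences on which the comparison of the miR-506 family turns are shown first. For each of 6 family members, the mouse mature sequence stands beside the most abundant rat tag of 20 to 24 nt nearest to it, and the mouse sequence of miR-741-3p, for which no such rat tag was found, is added. Capitals mark bases 2 to 8 of each sequence as printed, the seed.
miR-871-3p, mouse: tGACTGGCaccattctggataat
miR-871-3p, rat tag: tGACTGGCaccatactggataat
miR-743a-3p, mouse: gAAAGACAccaagctgagtaga
miR-743a-3p, rat tag: gAAAGACGccaaactgggtaga
miR-743b-3p, mouse: gAAAGACAtcatgctgaataga
miR-743b-3p, rat tag: gAAAGACAccatactgaataga
miR-878-3p, mouse: gCATGACAccacactgggtaga
miR-878-3p, rat tag: tGCATGACaccatactgggtaga
miR-547-3p, mouse: cTTGGTACatctttgagtgag
miR-547-3p, rat tag: aTTGGTACttctttaagtgaga
miR-471-3p, mouse: tGAAAGGTgccatactatgtat
miR-471-3p, rat tag: tGAAAGGTgccatactatgtac
miR-741-3p, mouse: tGAGAGATgccattctatgtaga

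Positions are counted from 1 at the 5′ end of the mouse mature sequence, with the mouse base first. The rat tag of miR-871-3p differs by T14A and was read 2234 times. The rat tag of miR-743a-3p (1778 reads) differs by A8G, G13A and A17G, the first of which lies in the seed. The rat tag of miR-743b-3p (1558 reads) differs by T9C and G13A and keeps the seed, so the mouse pair shares 1 seed and the rat pair does not. The rat tag of miR-878-3p (1466 reads) differs by C12T and starts 1 nt earlier, so that its seed is moved by 1 base. The rat tag of miR-547-3p (1867 reads) differs by C1A, A9T and G15A outside the seed. The rat tag of miR-471-3p (668 reads) differs only by T22C, beyond the 18 nt used for counting. In GRCm38.p6 these members lie on chromosome X, for example miR-743a-3p at chrX:66776760-66776781 and miR-871-3p at chrX:66810438-66810460, both on the minus strand.

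Read lengths gave the first view of what the rat testis holds. Reads of 25 to 32 nt, the size of piRNAs, made up 83.7% of rat reads, 76.9% of pachytene reads and 83.6% of round spermatid reads. Within 25 to 32 nt the rat profile had 1 peak, with 17.9% of all reads at 29 nt, 25.2% at 30 nt and 16.6% at 31 nt, and below that window it had a low peak at 23 nt (3.82%). Round spermatids had the same shape, with 15.0% at 29 nt, 27.6% at 30 nt and 19.8% at 31 nt. Pachytene spermatocytes had a second peak of shorter reads, with 11.5% at 26 nt and 11.4% at 27 nt beside 13.5% at 30 nt, where the rat library had 4.52% and 5.31% at 26 and 27 nt. Lengths of 29 to 32 nt therefore took 77.7% of the piRNA-sized reads in rat testis, 50.0% in pachytene spermatocytes and 83.8% in round spermatids. The first base was T in 88.2% of piRNA-sized reads in rat testis, 87.7% in pachytene spermatocytes and 88.9% in round spermatids. The tenth base was A in 33.1%, 30.6% and 32.6% of them, in the same order.

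**Figure D1:**
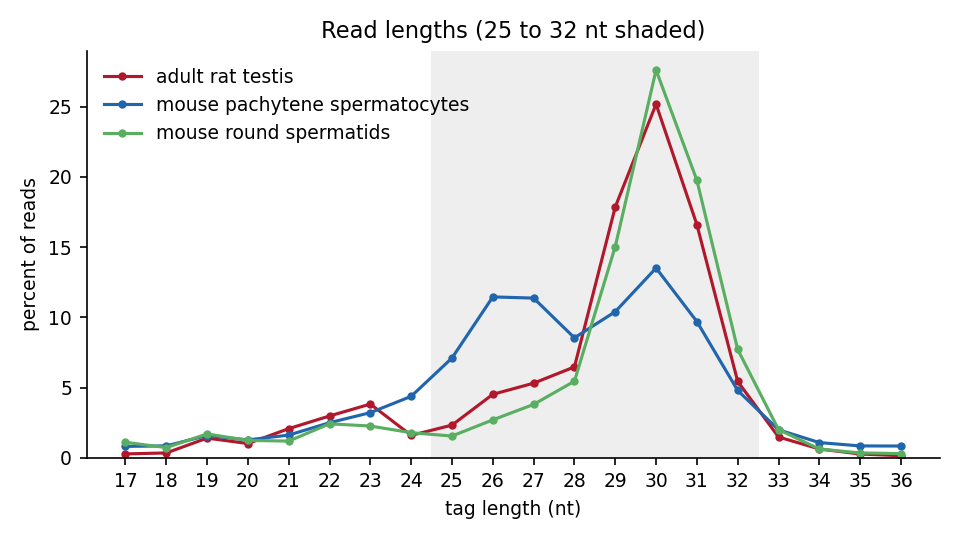
Share of all reads (percent, vertical axis) by tag length (nt, horizontal axis) in adult rat testis, mouse pachytene spermatocytes and mouse round spermatids, 1 library each, with 25 to 32 nt shaded. The rat line follows that of round spermatids with its highest point at 30 nt (25.2% and 27.6%), and the pachytene line has a second peak at 26 and 27 nt.

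Over all miRNAs with at least 100 reads in either library of a pair, a 4-fold difference was common. Against pachytene spermatocytes, 42 of 157 (26.8%) were at least 4-fold higher in rat and 46 (29.3%) at least 4-fold lower, with a count of 0 set to 3 reads. Against round spermatids, 47 of 149 (31.5%) were higher and 42 (28.2%) lower. Of these, 38 were higher against both mouse libraries and 35 lower against both. Levels scaled by all reads of a library gave 75 higher and 37 lower against pachytene spermatocytes and 72 higher and 35 lower against round spermatids, as they move the median log2 ratio to 1.68 and 1.74, and trimmed-mean factors gave 35 higher and 50 lower against round spermatids. Spearman's rank correlation of levels across miRNAs, which are not independent replicates, was 0.15 between rat testis and pachytene spermatocytes (n = 157) and 0.23 between rat testis and round spermatids (n = 149), against 0.81 between the mouse libraries (n = 130). Without the miR-506 family the values for rat were 0.36 (n = 134) and 0.44 (n = 126). These miRNAs were selected for their reads in 1 of the compared libraries and were counted with mouse sequences.

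**Figure D2:**
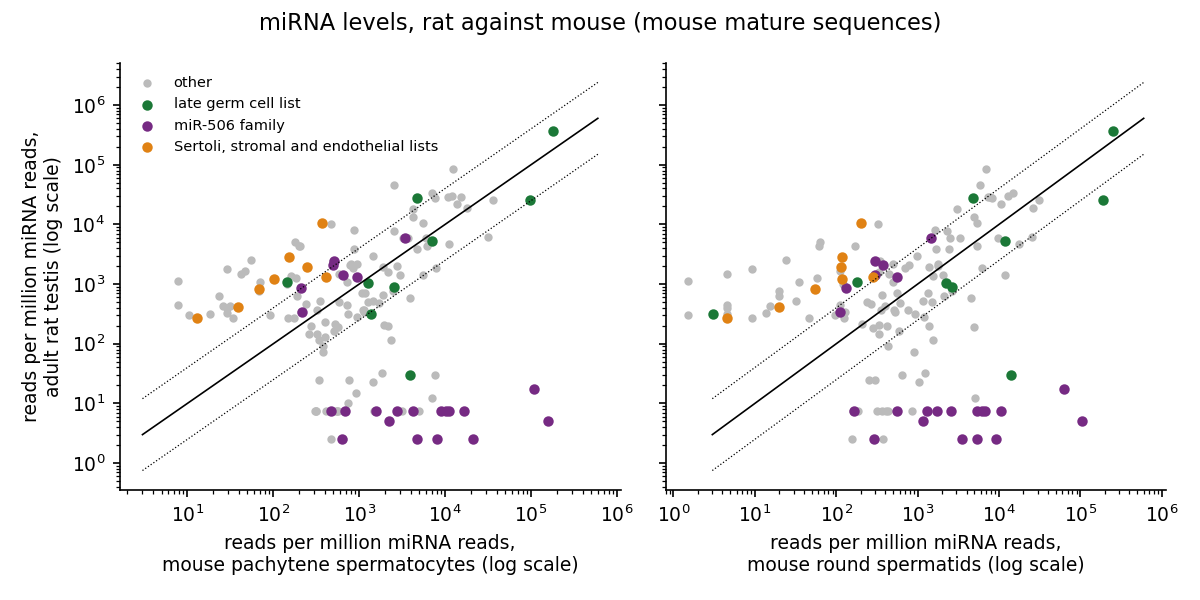
Level in adult rat testis (vertical axis) against the level in mouse pachytene spermatocytes (left) and round spermatids (right), both as RPM on log scales; each point is a miRNA with at least 100 reads in either library, a count of 0 is set to 3 reads, the solid line is equality and the dotted lines are 4-fold. The entries of the Sertoli, stromal and endothelial lists lie above equality, and 16 of 23 plotted miR-506 family entries lie under the lower dotted line in each panel.

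Rat testis shared its most abundant miRNA with both late germ cell libraries. The late germ cell list (miR-34b, miR-34c, miR-449a, miR-449c, miR-184, miR-191 and miR-425, 9 counted entries) held 43.5% of rat miRNA reads (43.4 to 43.7), between 29.9% in pachytene spermatocytes (29.7 to 30.0) and 47.5% in round spermatids (47.4 to 47.6). The place of rat below round spermatids turned as a share of all reads (2.88% against 1.33%). With whole mature sequences the shares were 13.8% against 10.8%. That setting leaves out miR-34c-5p, so it does not check the order of the same list. Most of the 43.5% in rat was miR-34c-5p, the most abundant miRNA of all 3 libraries, with 148869 reads or 373195 RPM in rat testis, 180787 RPM in pachytene spermatocytes and 251298 RPM in round spermatids. The rat level was 2.06-fold the pachytene level and 1.49-fold the round spermatid level, although trimmed-mean factors turned the latter to a log2 ratio of -0.12. miR-449a-5p, of the related miR-449 family, stood at 28039 RPM in rat testis against 4710 in pachytene spermatocytes and 4851 in round spermatids, a rat level 5.95-fold and 5.78-fold higher. miR-34b-5p stood at 1098 RPM against 143 and 178, while its sister arm miR-34b-3p stood at 5300 against 7018 and 11814. miR-34c-3p stood at 1035 RPM against 1254 and 2251. Scaled by all reads, both of these 3p arms stood higher in rat than in each mouse library.

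The other entries of the late germ cell list were lower by RPM in rat testis than in 1 or both mouse libraries. miR-191-5p stood at 25522 RPM in rat testis, 96992 in pachytene spermatocytes and 187758 in round spermatids, 3.80-fold and 7.36-fold lower in rat (log2 ratio 0.05 against pachytene spermatocytes when scaled by all reads). miR-425-5p, encoded beside miR-191, stood at 905 RPM against 2574 and 2626, but higher in rat than in pachytene spermatocytes when scaled by all reads (log2 ratio 0.47). miR-184-3p was read 12 times in rat testis, against 1482 times in pachytene spermatocytes and 9311 times in round spermatids, which is 128-fold and 471-fold lower in RPM. miR-449c-5p had 126 reads in rat testis, 525 in pachytene spermatocytes and 2 in round spermatids, so the rat level was 4.33-fold under the pachytene level and above the round spermatid level by 6.70 on the log2 scale (interval 4.81 to 9.76). Against pachytene spermatocytes 2 of the 9 entries were at least 4-fold higher in rat and 2 at least 4-fold lower, and against round spermatids 3 and 2. Over all miRNAs compared, 26.8% were higher and 29.3% lower against pachytene spermatocytes, and 31.5% and 28.2% against round spermatids. The median log2 ratio of the list was -0.41 against pachytene spermatocytes and -1.12 against round spermatids, beside -0.29 and 0.50 over all miRNAs compared. In a whole testis, fewer cells of a type and less RNA per cell cannot be told apart.

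The miR-506 family was the largest group on the low side. Counted by its first 18 mouse bases over 32 listed entries, it held 1.45% of miRNA reads in rat testis, 36.9% in pachytene spermatocytes and 22.6% in round spermatids, which is 25.5-fold and 15.6-fold less in rat. As a share of all reads the gap was smaller, at 0.0957% in rat testis against 0.620% and 0.631%. Of 23 family entries compared with each mouse library, 16 were at least 4-fold lower in rat, beside 29.3% and 28.2% of all miRNAs. The median log2 ratios of the family entries were -8.53 and -7.85. The largest difference was that of miR-741-3p, with 2 rat reads against 61238 in pachytene spermatocytes and 68987 in round spermatids. Its log2 ratios were -14.96 (interval -18.00 to -13.11) and -14.35 (-17.40 to -12.50). miR-871-3p had 7 rat reads against 41668 and 41216. miR-470-5p had 1 rat read against 8123 and 6086. miR-743b-3p had 0 rat reads against 6427 and 7033. These are counts of the mouse sequence, and they set no bound on the level of a rat form that differs from it, such as the rat tags of miR-871-3p and miR-743b-3p shown above. Of all 46 and 42 miRNAs at least 4-fold lower in rat, 27 and 24 had at most 3 rat reads.

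When rat reads were instead given to the nearest mature sequence with up to 3 mismatches, the family, here 38 mature sequences, held 5.97% of the rat miRNA reads so assigned (5.90 to 6.04), against 36.2% in pachytene spermatocytes and 22.05% in round spermatids. Of the rat family reads, 22.2% were identical to mouse over 18 nt, 40.04% had 1 mismatch, 14.7% had 2 and 23.1% had 3. In the mouse libraries 98.1% and 98.2% of family reads were identical. Among the reads of all other miRNAs of rat testis 94.2% were identical. Of the 38, 24 had a rat tag of at least 10 reads: 8 identical over 18 nt, 7 with 1 mismatch, 4 with 2 and 5 with 3. The seed was the same and in place in 17 of the 24 and differed in 7, and in 3 the rat tag started at another base. For 14 mature sequences no such rat tag was found. Among them, miR-742-3p, miR-880-5p, miR-881-5p and miR-465d-5p had no reads by this count in either mouse library.

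Counted by nearest sequence, the order of family members also differed between the species. miR-871-3p led the rat members with 4561 reads or 10466 RPM, against 103524 RPM in pachytene spermatocytes and 59790 in round spermatids. miR-743a-3p stood at 7129 RPM in rat testis against 1834 and 2210 in the mouse libraries, while miR-743b-3p stood at 6482 against 18036 and 11824. miR-878-3p stood at 5188 RPM in rat testis against 574 and 328. miR-547-3p had 2391 rat reads against 13 and 46 mouse reads. miR-201-5p had 2144 rat reads and 0 mouse reads by this count, and 5 and 3 mouse reads by the first 18 bases. miR-741-3p, miR-470-5p and the arms miR-465a-5p and miR-465c-5p had no rat tag. Levels were thus higher in rat for some members, while for others no rat tag was found. Members of near-identical sequence, such as miR-743a-3p and miR-743b-3p, can exchange reads in this count.

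The 8 members whose most abundant rat tag has the same first 18 bases as mouse can be compared without mismatches. They were picked through rat tags of at least 10 reads, so a member of unchanged sequence but few rat reads is left out. That choice favours members with high rat levels. The 8 members did not all stand on the same side. miR-743a-5p, which was not on the list counted above, had 282 rat reads against 419 and 365, with log2 ratios of -0.63 against pachytene spermatocytes and 0.35 against round spermatids. miR-471-5p stood at 5909 RPM in rat testis, 3375 in pachytene spermatocytes and 1441 in round spermatids. miR-471-3p had 838 rat reads against 191 and 244, with log2 ratios of 2.08 and 2.50. miR-883b-3p had 977 rat reads against 194 and 197, with log2 ratios of 2.28 and 3.03. miR-883a-5p had 347 rat reads against 81 and 86. Both miR-883b-3p and miR-883a-5p were at least 4-fold higher in rat than in each mouse library, as was miR-471-3p. miR-743b-5p (577, 249 and 199 reads) and miR-471-5p passed 4-fold against round spermatids alone. miR-463-5p (518, 360 and 367 reads) and miR-742-5p (138, 83 and 74 reads) differed less than 4-fold in both. These last 7 entries were the ones of the 23 compared that stood higher in rat than in each mouse library.

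Sertoli, stromal and endothelial miRNAs stood higher in the whole rat testis than in the isolated mouse cells. The Sertoli or gonadal list (miR-202-5p, miR-202-3p and miR-204-5p) held 1.16% of rat miRNA reads (1.12 to 1.19), 0.0449% of pachytene reads and 0.0260% of round spermatid reads, 25.8-fold and 44.4-fold more in rat. miR-202-5p had 4236 reads in rat testis, 142 in pachytene spermatocytes and 133 in round spermatids, or 10619, 370 and 202 RPM, and ranked 16 in the rat library. Its log2 ratio was 4.84 (4.60 to 5.09) against pachytene spermatocytes and 5.71 (5.46 to 5.97) against round spermatids. miR-204-5p had 325, 26 and 36 reads, and miR-202-3p, the other arm of miR-202, had 49, 4 and 2. All 3 were present at a low level in the mouse libraries, and the part of other cells in those libraries was not tested.

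The stromal or smooth muscle list (miR-199a, miR-199b, miR-214 and miR-152) held 0.650% of rat miRNA reads, 0.0832% of pachytene reads and 0.0523% of round spermatid reads. Of its 4 entries with enough reads, 3 were at least 4-fold higher in rat than in pachytene spermatocytes and 4 than in round spermatids. Over all miRNAs compared these shares were 26.8% and 31.5%. The shared 3p arm of miR-199a and miR-199b, a miRNA of fibroblast-like cells, had 1140 rat reads against 58 and 78. The endothelial list, both arms of miR-126a, held 0.161% of rat miRNA reads and 0.0141% and 0.0138% of those of the mouse libraries, with 478, 39 and 78 reads of miR-126a-3p. The blood and immune list was small everywhere, at 0.0281%, 0.0211% and 0.00746%. Its red cell miRNA miR-451a had 15 rat reads against 8 and 0, and its myeloid miRNA miR-223-3p had 9 against 1 and 0. Not all entries of this list stood higher in rat. Counted with up to 1 mismatch, miR-155-5p had 17 rat reads against 56 and 17, and miR-142a-3p had 16 against 12 and 22. The epithelial list, mainly the miR-200 family, held 0.0311% in rat, 0.0472% in pachytene spermatocytes and 0.0242% in round spermatids, though its share of all reads was highest in rat (0.00206%, 0.000794% and 0.000675%). The 8 somatic lists together (Sertoli or gonadal, stromal, endothelial, blood, epithelial, striated muscle, imprinted Dlk1-Dio3, and liver or neural, 38 entries) held 2.13% of rat miRNA reads (2.09 to 2.18), 0.393% in pachytene spermatocytes and 0.303% in round spermatids. The listed miR-449b, miR-292a-3p, miR-302a-3p, both arms of miR-143, miR-145a and miR-486a, miR-1a-3p, miR-133a-3p, miR-150-5p, miR-122-5p and miR-124-3p were not analysed here.

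**Figure D3:**
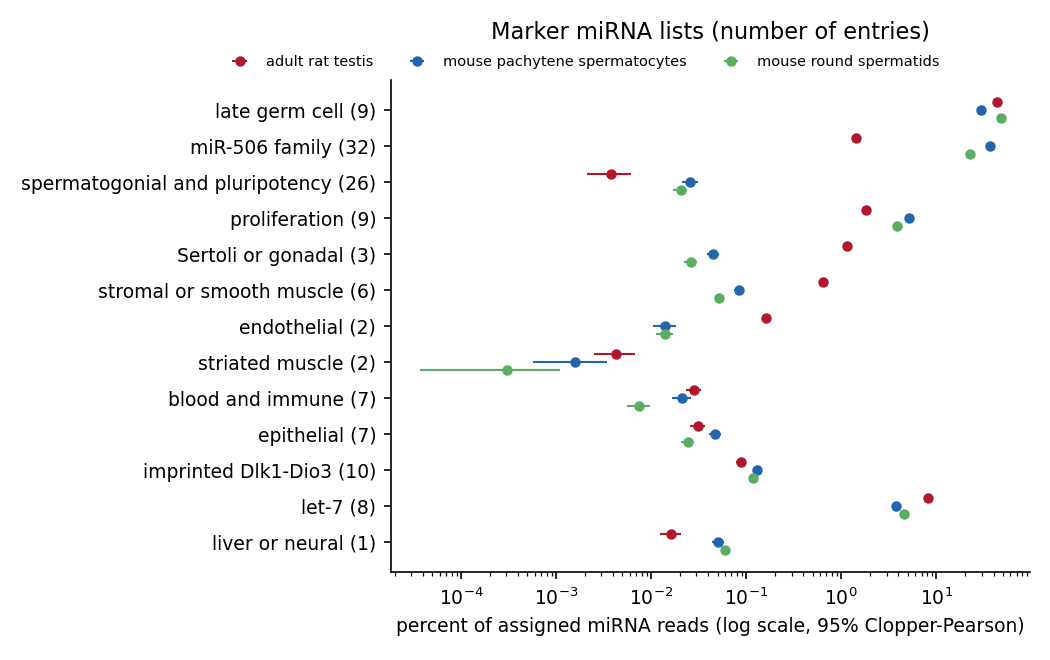
Share of assigned miRNA reads (percent, log scale, horizontal axis) held by each list of marker miRNAs, with the number of counted entries in brackets; points are the 3 libraries and bars the exact 95% interval. The late germ cell list lies at the right in all 3 libraries (43.5%, 29.9% and 47.5%), the miR-506 family lies lower in rat (1.45%), and the Sertoli, stromal and endothelial lists lie higher in rat.

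Outside the late germ cell, Sertoli, stromal and endothelial lists, let-7, a family of widely expressed miRNAs of differentiated cells, held 8.25% of rat miRNA reads against 3.78% in pachytene spermatocytes and 4.53% in round spermatids. Of its 8 entries 4 were at least 4-fold higher in rat in each comparison, led by let-7b-5p (1993, 69 and 41 reads) and let-7e-5p (255, 9 and 13 reads). Over all miRNAs compared, 26.8% and 31.5% were that much higher. let-7g-5p differed less, at 18904 RPM in rat testis against 18007 and 26295. The proliferation list, the miR-17 and miR-106b clusters, was lower in rat, at 1.82% against 5.16% and 3.88%, mostly through miR-92a-3p (6129, 31972 and 25128 RPM) and miR-25-3p, but as a share of all reads the order turned (0.120%, 0.0869% and 0.108%). Of its entries compared, 3 stood higher in rat and 5 lower against pachytene spermatocytes, and 4 higher and 5 lower against round spermatids. The log2 ratios against round spermatids were 4.04 for miR-106b-5p and 2.25 for miR-17-5p. The spermatogonial and pluripotency list held 15 rat reads (0.00376%), 0.0258% in pachytene spermatocytes and 0.0204% in round spermatids. The imprinted Dlk1-Dio3 list held 0.0875%, 0.130% and 0.119%, and its share of all reads was likewise highest in rat (0.00579%, 0.00219% and 0.00333%). Striated muscle miRNAs were nearly absent, with 17, 6 and 2 reads, and miR-9-5p, a neural miRNA, had 64, 195 and 392 reads.

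Of the 5 largest differences on the high side in each comparison, miR-449c-5p against round spermatids, described above, was on the late germ cell list, and the others were on no list. miR-222-3p, of the X-linked miR-221 and miR-222 pair, had 443 rat reads, 0 in pachytene spermatocytes and 1 in round spermatids. With the 0 set to 3 reads its rat level was 142-fold above the pachytene level (log2 ratio 7.15, lower bound of the interval 6.84). miR-221-3p had 702, 11 and 6 reads and miR-221-5p 175, 0 and 0 reads. miR-181a-5p, a miRNA known from lymphoid and many other cells, had 998 rat reads against 21 and 16, a level 45.7-fold and 103-fold higher. The entry miR-378c had 582, 16 and 3 reads by its first 18 nt, a count that cannot tell it from another miRNA with the same start. miR-450a-5p had 666, 18 and 73 reads, and miR-363-3p 120, 4 and 1. Among abundant miRNAs, miR-99a-5p ranked 2 in rat testis with 83338 RPM, against 12494 and 6991. miR-100-5p, with nearly the same sequence, stood at 45971 RPM against 2571 and 5916, and miR-10b-5p at 33396 against 7057 and 15060. The 5 leading miRNAs of the rat library, miR-34c-5p, miR-99a-5p, miR-100-5p, miR-10b-5p and the shared let-7a-5p and let-7c-5p entry, included only 1 of the 5 leading miRNAs of each mouse library, miR-34c-5p.

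Rat and mouse shared few piRNA-sized sequences, but more between rat testis and late germ cells than with earlier mouse germ cells. Before these shares are read, 1 property of another library has to be stated: 51 of the 100 most abundant piRNA-sized rat tags also occurred in the adult pig library, at a median of 2 pig reads, so shares that also ask for a similar level are given as well. Identical tags of 25 to 32 nt numbered 18775 between rat testis and pachytene spermatocytes and 17238 between rat testis and round spermatids. They carried 6.24% of rat piRNA-sized reads (6.22 to 6.26) and 6.47% (6.45 to 6.49). Without tags found in any library outside these 3, the shares were 1.30% and 1.40%. Together 22924 rat tags, 1.86% of all, occurred in 1 or both mouse libraries, and 13089 occurred in both. The same share was 2.13% against the SSC culture, 2.78% against zygotene spermatocytes, 4.36% against mature sperm, 3.24% to 3.79% against rabbit testis and 8.40% against pig testis. Within mouse, 77.7% of pachytene reads had an identical tag in round spermatids and 87.6% the other way.

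The measure that also asks for a similar level separated the late germ cells more widely. Rat reads whose identical tag stood within 10-fold of the rat level were 4.37% against pachytene spermatocytes and 4.79% against round spermatids. They were 0.772% against the SSC culture, 0.858% against zygotene spermatocytes, 1.64% against mature sperm, 0.741% to 1.09% against rabbit testis and 0.575% against pig testis. Of the 8.40% shared with pig, 6.42% stood at a pig level under 1 in 100 of the rat level. Depth differed between the libraries, with 17511724 and 19689800 piRNA-sized reads in the late germ cells, 10269155 in the SSC culture and 5159614 in zygotene spermatocytes. With both late germ cell libraries thinned to the rat number of piRNA-sized reads, the identical share was 5.75% and 5.78%.

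Sharing of the 5′ end, the first 20 nt, was about double that of whole tags. It covered 11.8% of rat piRNA-sized reads against pachytene spermatocytes (11.8 to 11.9), 12.1% against round spermatids (12.1 to 12.2) and 13.0% against either. With the level of the end within 10-fold, these shares were 7.57% and 8.05%. Allowing mismatches raised the share in the late germ cells more than in the others. Over the 62766 rat 5′ ends with at least 10 reads, which carry 80.3% of rat piRNA-sized reads, an identical end in pachytene spermatocytes covered 13.8% of reads, an end with 1 mismatch a further 12.7% and one with 2 mismatches a further 13.4%, in all 39.9%. For round spermatids these shares were 14.3%, 11.9% and 13.4%, in all 39.6%. The totals were 10.4% for the SSC culture, 14.7% for zygotene spermatocytes, 22.8% for mature sperm, 16.3% for rabbit testis at day 180 and 22.6% for pig testis. In pig testis 18.3% was identical and only 2.49% and 1.81% came with 1 and 2 mismatches. The remaining 60.1% and 60.4% of these rat reads had no end within 2 mismatches in pachytene spermatocytes and round spermatids.

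**Figure D4:**
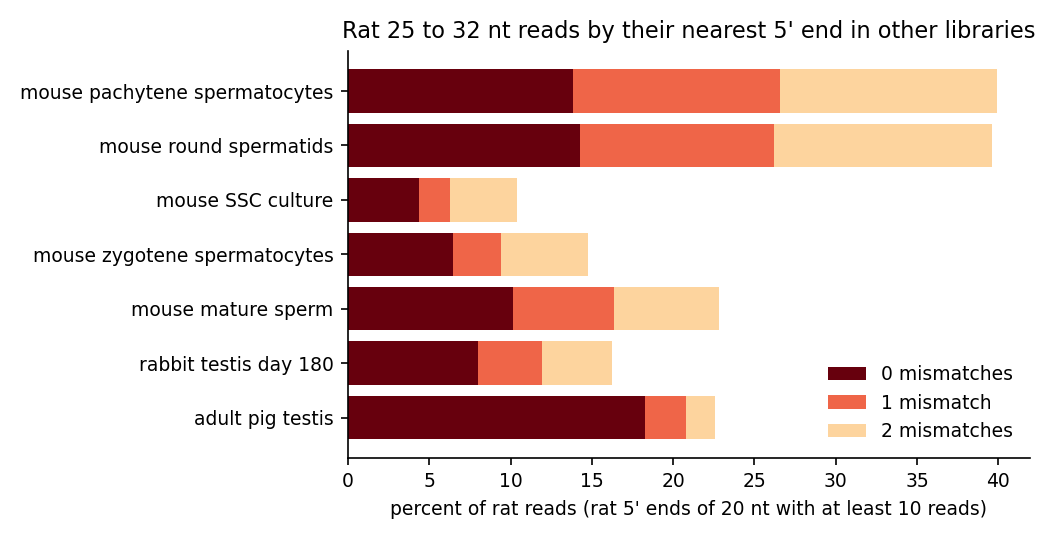
Percent of rat reads (horizontal axis, rat 5′ ends of 20 nt with at least 10 reads) whose nearest 5′ end in each other library has 0, 1 or 2 mismatches, stacked. Pachytene spermatocytes and round spermatids reach 39.9% and 39.6%, and the pig bar is long (22.6%) with nearly all of it at 0 mismatches (18.3%).

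Abundant rat tags were shared more often. Of rat tags read once, 0.958% occurred in pachytene spermatocytes and 0.815% in round spermatids. Of the 182 rat tags with at least 1000 reads, 36 (19.8%) and 40 (21.98%) did. Most of the leading rat piRNA-sized tags were nevertheless not found in mouse late germ cells, as 74 of the 100 most abundant were in neither library. Tags identical in either library started with T in 80.5% of their rat reads, against 88.8% for the other rat tags. Over distinct tags the order turned, at 82.3% against 79.9%. The 10 largest tags held 15.9% of the reads of identical tags, against 2.83% for the others. These sets differ in size, with 22924 and 1212359 tags, and the share of a fixed 10 tags depends on that size. The 3812 identical tags that also occurred in an SSC culture library held 29.3% of the reads of identical tags and started with T in 50.5% of reads. The 19112 that did not started with T in 92.9% of reads. Fragments of nuclear transfer RNAs were not removed, and their part in the shared tags was not tested.

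Where both species used the same 5′ end with at least 50 reads in each library, read lengths at that end could be compared. Over 931 ends shared with round spermatids the mean rat length was 29.24 nt and the mouse length 29.40 nt, a mean difference of -0.16 nt (SD 0.67). The most frequent length was the same at 65.3% of these ends. Over a different set of 931 ends shared with pachytene spermatocytes the means were 29.15 and 28.59 nt, a difference of 0.56 nt (SD 0.91), with the same most frequent length at 50.9%. Rat lengths at the same starts thus lay nearer to those of round spermatids, as in the profile over all reads. Across ends, which share a library, Pearson's r of the mean lengths was 0.83 with round spermatids and 0.74 with pachytene spermatocytes.

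Mouse transcripts of GENCODE release M21 were used to find where shared sequence lay. The first 25 nt of a tag matched a mouse transcript in sense for 1.31% of rat piRNA-sized reads, 17.3% of pachytene reads and 17.7% of round spermatid reads. Of the rat reads that matched, 83.2% had a 5′ end shared with pachytene spermatocytes and 81.0% with round spermatids, against 10.9% and 11.2% of those that did not. Both the match and the shared end ask for exact mouse sequence, so this contrast follows in part from how the sets were made. The rat matches lay in few genes: 10 genes held 67.9% of the rat reads assigned to 1 gene, and 9 of these 10 were among the 100 genes with the most reads in each mouse library. Of 15 genes with at least 500 rat reads, 13 had at least 500 in both mouse libraries. The genes were ranked by their rat reads, that is, chosen after their values were seen.

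The leading gene was 1700029M20Rik, a long noncoding RNA at chr4:135626655-135630198 on the plus strand, with 7641 rat reads or 1514 per 1000000 piRNA-sized reads, against 2808 in pachytene spermatocytes and 2463 in round spermatids. It was followed by the noncoding Gm49794 on chromosome 17 with 6848 rat reads (1357 on the same scale against 17906 and 5768) and Gm21269 on chromosome 7 with 4783 rat reads (948 against 17857 and 45306). The next was the protein-coding gene Tbl2 on chromosome 5, with 682 in rat against 944 and 3460. The noncoding 1700020N18Rik on chromosome 1 stood at 658 against 2441 and 2982. In these 5 genes 97.5% (Tbl2) to 99.9% (1700020N18Rik) of the rat reads began at a 5′ end also present in pachytene spermatocytes. These rat reads already matched mouse exactly. Pachytene reads had 232 (1700020N18Rik) to 4890 (Gm49794) different starts in these genes, and the share to be met without a common start was not tested. The exception among the leading 10 was Rny1, the gene of a Y RNA, with 1916 rat reads against 602 and 247, or 380, 34.4 and 12.5 on that scale.

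The tags that rat and mouse share whole are shown for 7 loci, because they carry the identity in full. They are the leading shared tags, by the lower of their rat and mouse levels, that start with T, occurred in no SSC culture library and lay in exactly 1 mouse gene, with 1 tag shown for each gene, and were chosen after their values were seen. The capital marks the first base.
Zfp445, antisense: Tattgtagataaaagggacagcataccaga
1700020N18Rik, sense: Ttgaaacctgagacttccagaagatgc
Tbl2, sense: Tgtaaaatggggaacgatgctctctgtggc
1700029M20Rik, sense: Tgccctgagcatgttgatctctttgtgcct
1700001L05Rik, sense: Tttcacagatgaggaaactgaagcttaggt
Cep83os, sense: Taacagactgaattgtgggtaatggcttc
Gm49794, sense: Ttttggctcatggatctggaagttgaagt

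The tag antisense to Zfp445, a zinc finger gene at chr9:122844529-122866006 on the minus strand, had 5955 reads in rat testis, 633 in pachytene spermatocytes and 4711 in round spermatids, or 1180, 36.1 and 239 per 1000000 piRNA-sized reads. The tag in 1700020N18Rik had 636, 7566 and 5518 reads, or 126, 432 and 280 on that scale. Its level was thus lower in rat than in each mouse library. The Tbl2 tag had 1269, 220 and 2409 reads, the 1700029M20Rik tag 424, 512 and 1823, the 1700001L05Rik tag 245, 545 and 1005, the Cep83os tag 243, 222 and 1467, and the Gm49794 tag 1996, 651 and 937. Among all shared tags that start with T and lie in no annotated small RNA gene, ranked by the lower of their rat and mouse levels, the first was a tag of 29 nt in no SSC culture library, with 7718 reads in rat testis, 13514 in pachytene spermatocytes and 15630 in round spermatids. Of the first 10 in this ranking, 6 also occurred in an SSC culture library.

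Tags of 19 nt formed a small class, with 1.40% of reads in rat testis (84661 reads), 1.59% in pachytene spermatocytes and 1.70% in round spermatids. In all 3 libraries this length differed from its neighbours by its position on longer tags. Cleavage by a PIWI protein is known to cut a target opposite bases 10 and 11 of the guiding piRNA, and 19-nt by-products that lie antisense to a piRNA from base 11 on have been described from mouse testis. Of the rat 19-nt reads 40.9% (40.5 to 41.2) were antisense to bases 11 to 29 of a piRNA-sized tag of the same library, against 1.21% to 18.9% (median 13.6%) at the other offsets. In pachytene spermatocytes the share was 30.1% against 2.0% to 19.7%, and in round spermatids 30.9% against 0.867% to 12.5%. At 18 nt the share at base 11 was 4.93%, 6.89% and 2.32%, and at 20 nt 1.90%, 4.78% and 4.59%, in the order rat, pachytene and round. Each 19-nt tag can lie at several offsets, and only 3.80% of rat 19-nt reads lay at bases 11 to 29 and nowhere else. When each read with an antisense partner was given to its most abundant partner alone, base 11 took 43.2% in rat testis, 35.8% in pachytene spermatocytes and 40.3% in round spermatids.

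The 2 most abundant rat 19-nt tags that had their most abundant partner at this position, started no longer tag and matched no miRNA are shown with that partner, as the position is visible in the letters. Capitals mark bases 11 to 29 of the partner, which are the reverse complement of the 19-nt tag.
rat 19-nt tag, 853 reads: atgggctgtagaatttctc
its partner, 381 reads: ttctgcccgaGAGAAATTCTACAGCCCATg
rat 19-nt tag, 352 reads: cagagacctgaatccaaac
its partner, 24 reads: tagcaggatgGTTTGGATTCAGGTCTCTGt

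The first of these tags was the second most abundant rat tag of 19 nt. Of the other leading rat tags of 19 nt, the one with 811 reads was the start of miR-202-5p (ttcctatgcatatacttct), the one with 530 reads the start of miR-99a-5p (aacccgtagatccgatctt), and the one with 518 reads (gcctcttttagacatcaac) also lay antisense at bases 11 to 29. The most abundant, with 1089 reads, was the start of a longer tag and did not lie antisense at that position. The partners among tags of 29 to 32 nt carried 7.36% of the rat reads of that length, 7.13% of those of pachytene spermatocytes and 8.91% of those of round spermatids.

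**Figure D5:**
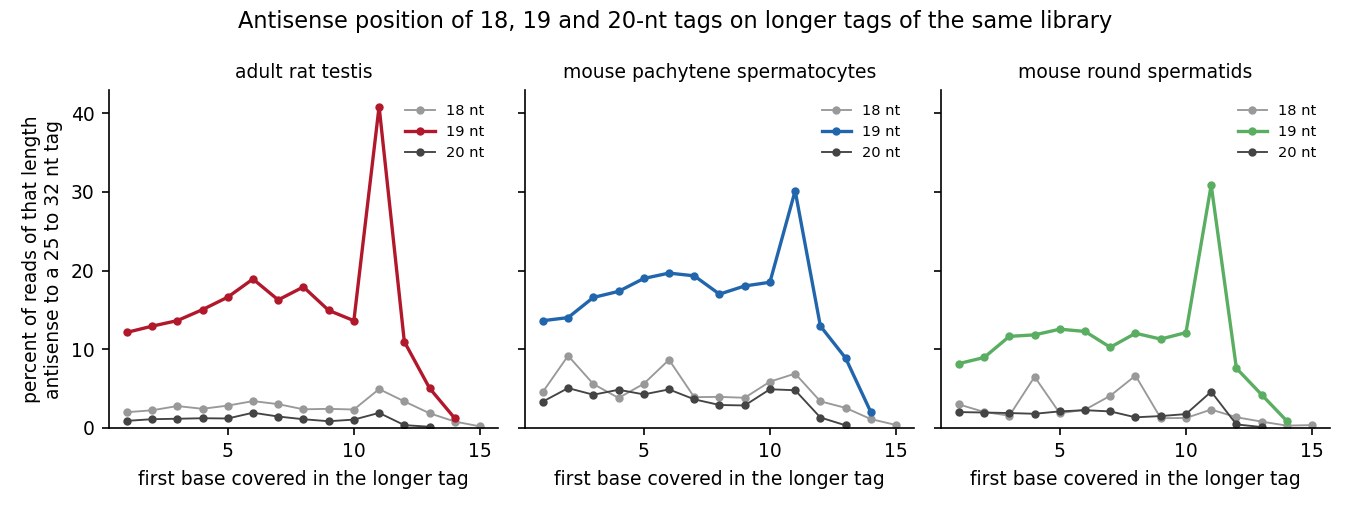
Percent of reads of 18, 19 and 20 nt (vertical axis) that are antisense to a tag of 25 to 32 nt of the same library, by the first base they cover in the longer tag (horizontal axis), 1 panel per library. The 19-nt line has its highest point at base 11 in each panel (40.9%, 30.1% and 30.9%), and the lines of 18 and 20 nt stay under 10%.

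Rat 19-nt tags also differed from their neighbours in being less often the start of a longer tag. Of rat 19-nt reads 28.9% were the first 19 nt of a piRNA-sized tag, against 59.3% at 18 nt and 78.9% at 20 nt. The shares at 19 nt were higher in pachytene spermatocytes (66.1%, against 80.3% and 84.7% at 18 and 20 nt) and round spermatids (50.5%, against 80.0% and 83.3%). Over distinct 19-nt tags they were 22.2% in rat testis, 43.9% in pachytene spermatocytes and 25.0% in round spermatids. The deeper mouse libraries were not thinned for this measure. The first base was T in 37.8% of rat 19-nt reads, against 54.1% at 18 nt and 75.1% at 20 nt, and in 53.7% and 51.2% of mouse 19-nt reads. In the rat tags at bases 11 to 29, A was first in 32.6% of reads and C was last in 40.2%, against 38.1% and 37.01% with C last in pachytene spermatocytes and round spermatids. Over all 19-nt reads the shares were not far from these. A was first in 27.1% in rat testis, and C was last in 35.0%, 33.1% and 32.1% in rat testis, pachytene spermatocytes and round spermatids. Few of these sequences were shared between the species: 926 rat 19-nt tags occurred in pachytene spermatocytes and 995 in round spermatids, with 11.5% and 12.2% of rat 19-nt reads. Of the rat reads at bases 11 to 29 alone 3.72% and 4.84% were shared, while 83.3% of such pachytene reads had an identical 19-nt tag in round spermatids and 60.3% the other way.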

How the data were processed

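Small RNA libraries were made from total RNA and sequenced on an Illumina instrument, per the labels' protocols. The authors deposited 1 table of raw counts per library, each row a tag and its read count. Per the submitters' processing notes Bowtie was used, with builds that include mm10 and rn6. Adapter trimming and alignment settings are not given in the sources used here, and only tags of at least 17 nt occur in the files. The 3 libraries held 6030281 to 23552284 reads.

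Tags were matched with Python 3.11.15 and numpy 2.4.6. Mature miRNAs came from RefSeq (GRCm38.p6, 1663 entries of at least 18 nt or from a hairpin arm: miR-34c-5p, miR-126a-5p and miR-199b-5p were counted from the arm); of 139 listed names 125 had a value. Counts of miRNA reads were scaled per 1000000 assigned reads (RPM), a ratio of at least 4-fold among entries with at least 100 reads was called, and 0 was set to 3. Ratios have exact conditional binomial intervals and shares Clopper-Pearson intervals. Trimmed-mean factors came from edgeR 4.0.16. Named miRNAs are the 5 most abundant of each library, the 5 largest differences in each direction, and members of the germ cell, family and somatic lists; named tags are the 10 shared at the highest level and the 5 leading 19-nt tags. The matching steps were tested on simulated data. Members and lists were chosen with earlier results of these data known.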

Additional observations from a re-analysis of the deposited data

Results flagged for a closer look

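The adult pig testis library, which is outside the main comparison and stands above only beside the shares of tags and 5′ ends, held 51 of the 100 most abundant rat tags of 25 to 32 nt, against 19 to 22 in the rabbit testis libraries, 23 in mouse pachytene spermatocytes and 26 in mouse round spermatids. Of these tags, 31 occurred in pig testis and in no other library than rat, with 1 to 12 pig reads each against 1444 to 55088 rat reads. The pig level of these 31 tags was at most 0.190% of the rat level.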

How the results depend on the processing

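Of 99 named miRNA ratios past 4-fold, 97 kept their direction in every setting that gave a value (6 or 7 for each ratio). Against round spermatids the log2 ratio of miR-878-3p became 0.94 with up to 1 mismatch in the first 18 nt, where the rat form is counted, and that of miR-471-3p became -5.87 with whole mature sequences of exact length, where the rat form with T22C is not.

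Called miRNAs (88 against pachytene spermatocytes, 89 against round spermatids) numbered 155 and 151 with a minimum of 20 reads and 185 and 179 with none, as more entries are compared, and 54 and 55 with whole mature sequences, where fewer are. In the order rat testis, pachytene spermatocytes and round spermatids, the late germ cell list held 41.5%, 29.1% and 46.7% with 1 mismatch, 13.8%, 6.39% and 10.8% with whole mature sequences (which leave out miR-34c-5p), and 2.88%, 0.503% and 1.33% of all reads. With whole sequences miR-34c-5p is also missing from the total of every list. The miR-506 family held 3.22%, 35.7% and 22.1% with 1 mismatch, 1.84%, 64.4% and 46.6% with whole sequences, 0.0957%, 0.620% and 0.631% of all reads, and 5.97%, 36.2% and 22.05% by nearest sequence. The 8 somatic lists together held 2.07% in rat with 1 mismatch, 4.57% in rat and 0.565% in round spermatids with whole sequences, and 0.141%, 0.00661% and 0.00846% of all reads. These shares keep rat above both mouse libraries for the 8 somatic lists summed and below them for the family. Taken singly, the imprinted Dlk1-Dio3 list and the liver or neural list were lower in rat than in both mouse libraries by share of miRNA reads.

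Over distinct tags, reads of 25 to 32 nt were 83.3%, 71.3% and 79.3%, T first 79.9%, 77.6% and 81.5%, 29 to 32 nt 68.2%, 50.4% and 72.5%, 19 nt 2.35%, 1.82% and 2.64%, and 19-nt tags that start a longer tag 22.2%, 43.9% and 25.0%. Over tags with at least 2 reads, the first was 84.2%, 77.5% and 83.9%, the second 90.5%, 88.6% and 89.3%, the fourth 1.17%, 1.57% and 1.66%, and the fifth, with such longer tags, 18.7%, 59.6% and 46.1%. A window of 24 to 33 nt held 86.8%, 83.2% and 87.4% of reads.

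Against pachytene spermatocytes and round spermatids, identical tags were 1.52% and 1.40% over distinct tags, 5.91% and 6.04% with mouse tags of at least 2 reads, 5.75% and 5.78% after thinning, 5.67% and 5.89% for tags starting with T, and 1.30% and 1.40% without tags found in any library outside the 3. Shared 5′ ends were 13.5% and 13.9% with 18 nt, 9.36% and 9.64% with 24 nt, 3.14% and 2.92% over distinct ends, and 10.9% and 10.7% after thinning. Alternatives chosen after seeing the data gave identical tags of 4.83% and 5.10% without tags of the knockout experiment and 4.37% and 4.79% within 10-fold, and 5′ ends of 7.57% and 8.05% within 10-fold, 26.6% and 26.2% with up to 1 mismatch and 39.9% and 39.6% with up to 2. The planned restriction to reads in the mouse genome was not run. The rat depth limits rare miRNAs: 3 reads are 7.52 RPM.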
